A study of Mus musculus with 12 samples.

Results

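Foxj1 and 7 genes tied to motile cilia, namely Rfx2, Rfx3, Tekt1, Tekt2, Tekt4, Dnali1 and Spag6, were followed across 12 arrays of mouse uterus. These 8 genes were selected on values measured on the same arrays, and the record of that choice names no single contrast, so every adjusted p below describes a difference and is not independent evidence of it. Probes were taken by gene name or by the current symbol of their accession. That gave 13 of the 41174 probes on the array, of which 10 cleared the background on every array of 1 or more of the groups. All 8 genes kept at least 1 such probe, among 19265 genes tested.

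The arrays held uteri of adult ovariectomized female mice of the strain C57bl6/Jx129, 10 or more weeks old and left for 10 to 14 days after surgery. Wild-type (WT) mice carried the wild-type estrogen receptor alpha, the product of Esr1, and EAAE mice carried a form that the series title calls DNA binding deficient; whether EAAE mice had 1 or 2 copies of the altered allele is not stated in the labels. Saline or estradiol (E2, whose dose the labels leave out) was injected in 100 ul, and uteri were frozen 2 h later. This made 4 groups of 3 mice, saline and E2 in WT and the same pair in EAAE, with 1 mouse per array. All mice therefore lacked ovaries, all received an injection, and E2 is the only hormone the labels name. Total RNA of the whole uterus was used (500 ng, labelled with Cy3), so in this bulk tissue fewer cells of a type and less RNA per cell cannot be told apart.

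FOXJ1 is the master transcription factor of motile cilia, the beating projections that line parts of the reproductive tract and the airways. RFX factors such as RFX2 and RFX3 work beside it and bind the X-box, a DNA element in front of many cilia genes. The products that build the moving shaft, the axoneme, include tektins (Tekt1, Tekt2, Tekt4), which run along its microtubule doublets, the inner dynein arm light chain encoded by Dnali1, and the central pair protein encoded by Spag6. In the uterus, Foxj1 is expressed in the epithelium, glands included, where ciliated cells are few.

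Promoters of the listed genes are shown here with their matches to a part of the X-box, and the part of these matches in expression was not tested. RefSeq windows of assembly GRCm38.p6 were at hand for 7 of the 8 genes, 10 windows in all because some genes have several start sites, and the 250 bases before each start were searched on both strands. The X-box half-site (GTTGCC, or GGCAAC on the other strand) lay in 5 of the 10 windows, against 10.4% of all 32851 windows of the same length. These windows belong to 4 genes, namely Rfx2, Tekt1, Tekt2 and Spag6. The first and second windows of Tekt2 share the same half-sites. The second window of Tekt1 and the third of Tekt2 held none. The 140 bases before the first listed start of each are printed 5′ to 3′ on the strand of the gene, and capitals mark the half-sites.
Rfx2 (chr17:56831009-56831148, minus strand): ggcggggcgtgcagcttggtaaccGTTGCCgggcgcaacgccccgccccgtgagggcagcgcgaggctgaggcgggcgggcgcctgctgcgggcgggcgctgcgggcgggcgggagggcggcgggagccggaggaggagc
Tekt1 (chr11:72361883-72362022, minus strand): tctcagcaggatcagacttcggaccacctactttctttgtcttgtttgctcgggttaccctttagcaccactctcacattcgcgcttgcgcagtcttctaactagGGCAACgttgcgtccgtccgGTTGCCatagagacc
Tekt2 (chr4:126325689-126325828, minus strand): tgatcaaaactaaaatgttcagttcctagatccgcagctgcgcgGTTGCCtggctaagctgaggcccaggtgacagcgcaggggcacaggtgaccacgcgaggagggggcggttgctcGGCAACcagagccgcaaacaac
Spag6 (chr2:18698882-18699021, plus strand): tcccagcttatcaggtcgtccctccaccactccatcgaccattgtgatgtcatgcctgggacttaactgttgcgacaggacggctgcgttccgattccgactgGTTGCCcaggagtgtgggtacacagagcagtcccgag
Tekt1 and Tekt2 each held 2 half-sites in opposite orientation. They lay 35 and 15 bases before the start of Tekt1 and 96 and 22 bases before that of Tekt2. Rfx2 held its single half-site 116 bases, and Spag6 37 bases, before the start. The windows of Rfx3, Tekt4 and Dnali1 held none of these letters. A strict form of the full X-box (GTTNCCNNGGNAAC, in 0.374% of all windows) and the forkhead core (TGTTTAC, 3.17%) were not found in the windows of the 7 genes. Nor were the estrogen response half-site (AGGTCA, 14% of windows) and the full estrogen response element (GGTCANNNTGACC, 0.0639%). X-box forms with other letters or another spacing were not searched, so a window without a match is not shown to lack an X-box. A match is a run of letters and not a measured binding site.

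Levels below are log2 intensity relative to the 75th percentile of the array, so 0 is the level of a probe at that percentile, and levels of different probes cannot be set against each other. Differences are log2 differences from 1 limma fit over the 12 arrays, with the standard error (SE) and a Benjamini-Hochberg adjusted p over all 19265 genes. A gene is called where the adjusted p is under 0.05. Between 63.98 and 74.03% of probes were well above background on each array, and arrays of the same group correlated at 0.98 to 0.99 over the tested genes. Esr1 itself was higher in EAAE than in WT by 0.41 in saline (adjusted p = 0.00929) and by 0.42 after E2 (adjusted p = 0.00316), a level that does not check the genotype.

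Foxj1, the regulator, differed far more between genotypes than between treatments. Its 1 probe (chr11:116439945-116440004 on build mm7, minus strand) read -0.96, -1.20 and -2.12 in the 3 WT saline mice. In WT E2 it read -1.89, -2.45 and -2.59. EAAE saline mice stood at -5.12, -5.31 and -5.17, just above background on all 3 arrays. In EAAE E2 mice the readings of -6.19, -6.47 and -5.40 were not well above background on any array. The order of the group means ran from WT with saline through WT with E2 and EAAE with saline to EAAE with E2, and no EAAE mouse came within 2 log2 units of any WT mouse.

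In saline, Foxj1 was 13.7-fold lower in EAAE than in WT uteri, from a mean of -1.43 ± 0.61 (SD, n = 3) to -5.20 ± 0.10 (SD, n = 3). The log2 difference was -3.77 (SE 0.33, adjusted p = 3.16e-05 by limma). After E2 the probe was dim in all 3 EAAE mice and gives a bound: at least 9.22-fold lower in EAAE (measured means -2.31 and -6.02, adjusted p = 6.20e-06 by limma). Such a bound replaces each dim reading that lies under the array's detection limit (the lowest signal of any probe well above background) by that limit. Within slides, the EAAE minus WT difference was -4.35 in saline on the only slide with both groups, and -3.60, -4.59 and -2.94 after E2 on the 3 slides, with 1 mouse per group on each. With another background correction (normexp, offset 50) the differences shrank to -2.56 in saline and -1.95 after E2. Both genotype calls held in all 22 alternatives. Position 4 of the slides held every EAAE E2 array and no other, so after E2 position 4 and that group cannot be told apart. Position was uneven with saline too, at 1, 1 and 2 for WT and at 2, 3 and 3 for EAAE arrays.

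Foxj1 also stood lower after E2 in WT mice, but here the groups overlapped, since the WT saline mouse at -2.12 lay inside the range of the E2 mice. The difference was -0.89 (SE 0.33, adjusted p = 0.0491 by limma), and that call was lost in 15 of 22 alternative analyses, over which the adjusted p ran from 0.00941 to 0.169. Among the single arrays whose removal ended the call were WT saline mouse 1 (adjusted p = 0.169) and mouse 2 (0.136), and WT E2 mouse 2 (0.129) and mouse 3 (0.144). Removal of any EAAE saline mouse (0.0635, 0.063 and 0.0639) or of EAAE E2 mouse 1 (0.058) ended it too, with the WT difference itself unchanged. In EAAE mice the readings give at least a 1.24-fold lower level after E2, which was not called (adjusted p = 0.267). As no EAAE E2 reading was well above background, the size of the EAAE response, and its difference from that of WT, could not be measured.

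**Figure D1:**
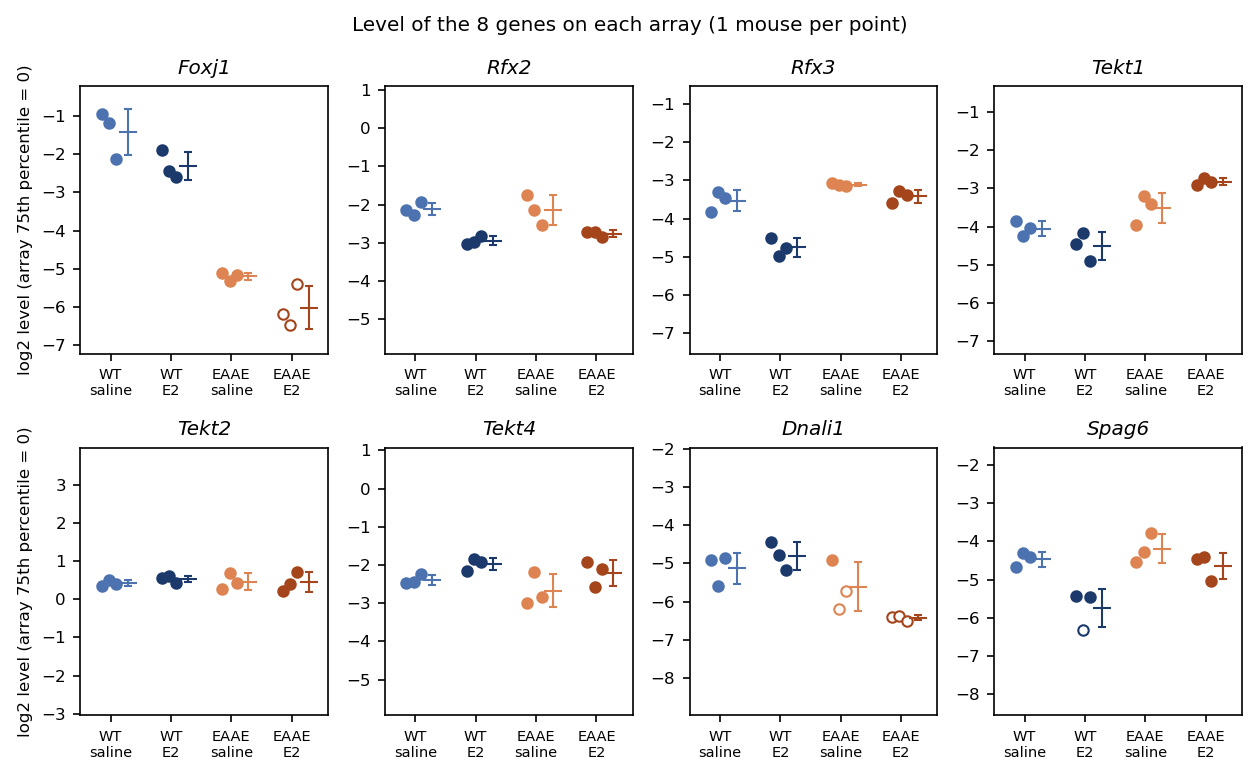
Log2 level of the 8 genes on each of 12 arrays, by group, with 1 point per mouse beside the mean and SD (bar, n = 3); filled points were well above background and hollow points were not, and every panel spans the same number of log2 units. Foxj1 lies between -2.59 and -0.96 in WT and between -6.47 and -5.12 in EAAE mice, whereas Tekt2 stays between 0.22 and 0.72 throughout.

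The RFX genes did not follow Foxj1 between genotypes. Rfx2 (probe at chr17:54987456-54987515, mm7) read -2.15, -2.26 and -1.93 in WT saline and -3.03, -2.99 and -2.81 in WT E2. In EAAE mice it read -1.76, -2.15 and -2.53 with saline and -2.71, -2.72 and -2.85 with E2. In both genotypes the E2 mice all lay below the saline mice. Rfx2 fell by 0.83 on the log2 scale after E2 in WT (SE 0.17, adjusted p = 0.00243 by limma), a call that held in all 23 alternatives. In EAAE the difference was -0.61 (SE 0.17, adjusted p = 0.114), which passed the threshold without EAAE saline mouse 3 (-0.81, adjusted p = 0.0492). The responses of the genotypes differed by 0.21 (95% interval -0.32 to 0.75). EAAE and WT overlapped in both treatments, with differences of -0.03 in saline and 0.19 after E2.

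Rfx3 is also an RFX factor of ciliated cells, and its brightest probe (chr19:27505481-27505540, mm7) fell with E2 in WT. This probe was assigned to Rfx3 only by the gene name in the files, whereas the other Rfx3 probes matched by accession. It read -3.82, -3.30 and -3.46 in WT saline and -4.49, -4.99 and -4.76 in WT E2. In EAAE it read -3.07, -3.12 and -3.14 with saline and -3.59, -3.27 and -3.38 with E2. WT E2 mice were the lowest of all 12, without overlap with any other group. Rfx3 fell by 1.22 after E2 in WT (SE 0.16, adjusted p = 0.000117 by limma), whereas in EAAE the difference was -0.30 (adjusted p = 0.377). The difference between the responses was itself called, at 0.91 (SE 0.22, adjusted p = 0.00918). EAAE exceeded WT by 1.33 after E2 (adjusted p = 4.08e-05), and by 0.42 in saline, where the call was missed (adjusted p = 0.0716) and was made without WT saline mouse 2 (0.53, adjusted p = 0.0437).

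Other probes of Rfx3 were dimmer and did not show this pattern. The probe at chr19:27526114-27526173 was lower after E2 by 0.54 in WT (adjusted p = 0.056) and by 0.66 in EAAE (adjusted p = 0.159). Between genotypes in saline, where all its readings were well above background, it differed by 0.05 (adjusted p = 0.879 by limma). After E2 it was well above background on 1 of 3 arrays in each genotype, so a genotype difference after E2 could not be read from it. With the mean of both tested probes, which takes in those dim readings, the difference between responses came to 0.40 and was no longer called (adjusted p = 0.168), and the genotype difference after E2 to 0.63 (adjusted p = 0.00464). The probe at chr19:27468396-27468455 was well above background on 1 array only and was not tested.

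Tekt1, a tektin of the axonemal doublets, was higher in EAAE, opposite in sign to Foxj1. Its main probe (chr11:72426295-72426354, mm7) read -3.85, -4.25 and -4.05 in WT saline and -4.45, -4.18 and -4.91 in WT E2. In EAAE it read -3.96, -3.20 and -3.41 with saline and -2.91, -2.73 and -2.84 with E2. The EAAE E2 mice were the highest of the 12, and WT saline overlapped both WT E2 and EAAE saline.

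After E2, Tekt1 was 3.21-fold higher in EAAE than in WT (log2 difference 1.68, SE 0.22, adjusted p = 8.07e-05 by limma). In saline the difference was 0.53 (adjusted p = 0.0936), and it was called without EAAE saline mouse 1 (0.75, adjusted p = 0.0245) and with the mean of both Tekt1 probes (0.64, adjusted p = 0.0174), the second of which is dim in WT. The log2 difference after E2 was -0.46 in WT (adjusted p = 0.107) and 0.69 in EAAE (adjusted p = 0.158), neither called, but the difference between these responses was, at 1.15 (SE 0.31, adjusted p = 0.015). With slide as a block that difference was 1.08 and missed the threshold (adjusted p = 0.0576). The other Tekt1 probe spans an intron (its ends lie 6105 bases apart on chromosome 11) and was dim in WT mice, well above background on 1 of 3 arrays with saline and on none with E2, so it gives no WT response. This probe was tested only through the EAAE groups, where it reads higher, so it and the mean of both probes lend no separate support. After E2 it was at least 2.1-fold higher in EAAE (measured means -4.55 and -5.98, adjusted p = 1.54e-05 by limma). In saline all 3 EAAE readings, at -5.42, -4.93 and -5.10, lay above those of WT.

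Tekt2 and Tekt4, the other tektins, gave no call in any comparison. Tekt2 (chr4:125766833-125766892, mm7) read 0.35, 0.50 and 0.40 in WT saline, 0.56, 0.60 and 0.44 in WT E2, 0.26, 0.69 and 0.43 in EAAE saline, and 0.22, 0.39 and 0.72 in EAAE E2. All 4 groups overlapped. The EAAE minus WT difference of Tekt2 was 0.04 in saline (95% interval -0.27 to 0.36) and -0.09 after E2 (-0.40 to 0.23), so a change of the size seen for Foxj1 lies far outside these intervals. Tekt4 (chr17:23659610-23659669, mm7) read -2.48, -2.43 and -2.23 in WT saline, -2.15, -1.85 and -1.91 in WT E2, -3.00, -2.18 and -2.84 in EAAE saline, and -1.92, -2.58 and -2.09 in EAAE E2. In WT all E2 mice lay above the saline mice, by 0.41 (SE 0.22, adjusted p = 0.145), and the call was made with slide as a block (0.59, adjusted p = 0.00665) or with the WT arrays alone (0.41, adjusted p = 0.0238). Tekt2 carries 2 X-box half-sites as Tekt1 does, in the promoters printed above, and of this pair Tekt1 alone was called in any of the 5 comparisons. The part of the half-sites in these levels was not tested.

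Dnali1, the inner arm dynein light chain, was near the background of the arrays. Its probe spans an intron on chromosome 4, and the gene overlaps Gnl2, a protein-coding gene. It read -4.92, -5.59 and -4.86 in WT saline and -4.44, -4.78 and -5.17 in WT E2. EAAE saline mice read -4.92, -6.19 and -5.71, with mouse 1 alone well above background, and EAAE E2 mice read -6.40, -6.37 and -6.50, all not well above background. All WT mice, and 1 of 6 EAAE mice, thus gave a reading above background, so the gene was tested only through the WT groups. After E2, Dnali1 was at least 1.65-fold lower in EAAE than in WT (measured means -6.42 and -4.80, adjusted p = 0.00112 by limma). This call was lost with position on the slide as a term (-1.17, adjusted p = 0.103), and since position 4 held every EAAE E2 array and no other, position 4 and that group cannot be told apart. In saline the difference was -0.48 (adjusted p = 0.27). Without EAAE saline mouse 1 it was called (adjusted p = 0.0479), but that leaves no reading well above background in its group. The difference between the responses rests on the same dim readings and has no measured size. It was not called (adjusted p = 0.0639), and was called without WT E2 mouse 3 (0.0497) or EAAE saline mouse 2 (0.0217) and with array-median (0.0417) or quantile scaling (0.0304).

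Spag6, the central pair protein, had its probe on chromosome 2 (chr2:18810659-18810718, mm7), under an older name in the array design. It read -4.68, -4.30 and -4.42 in WT saline and -5.44, -6.31 and -5.45 in WT E2, where mouse 2 was not well above background. In EAAE it read -4.53, -4.28 and -3.78 with saline and -4.47, -4.41 and -5.04 with E2. WT E2 mice again lay below every other mouse. Spag6 fell by 1.27 after E2 in WT (SE 0.28, adjusted p = 0.00336 by limma), 2.41-fold, whereas the difference in EAAE was -0.45 (adjusted p = 0.459). The difference between the responses was 0.82 with a 95% interval of -0.04 to 1.69 and was not called (adjusted p = 0.122). EAAE exceeded WT by 1.09 after E2 (adjusted p = 0.00608), and by 0.27 in saline (adjusted p = 0.489). With normexp the fall in WT was 0.49 and the genotype difference after E2 0.43, both still called. A pair of further probes that the files name Spag6 lie on chromosome 16 and belong, by accession or shared name, to the gene now called Spag6l. Each was well above background on 1 array only, so Spag6l was not tested.

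**Figure D2:**
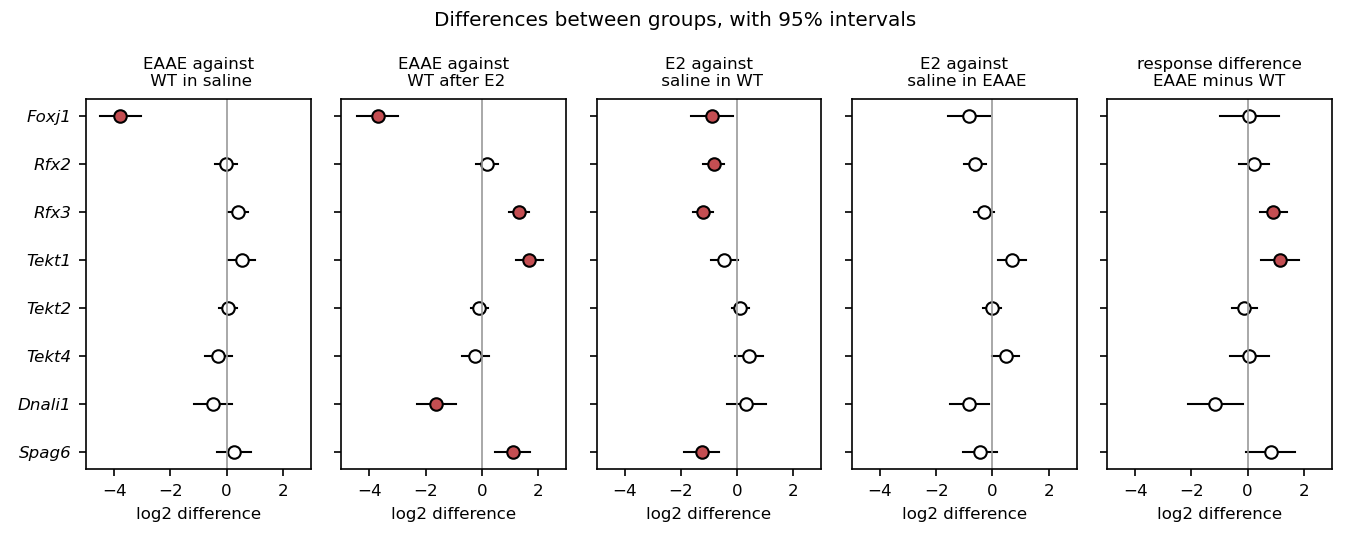
Log2 differences of the 8 genes in the 5 comparisons, with 95% intervals from the limma fit over 12 arrays; red points are called at an adjusted p under 0.05. Foxj1 lies at -3.77 and -3.71 in the genotype comparisons, where Tekt1 lies at 0.53 and 1.68; fitted values that involve a dim group (Foxj1 and Dnali1 in EAAE E2) are not measured sizes.

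In the response of WT mice to E2, 4 of the 8 genes were lower and none was higher. Of all genes tested in that comparison, 29.7% were called lower and 19.6% higher. The median difference was -0.64 over the 8 genes and -0.15 over all genes. Under scaling by the array median, the median of all genes moved to -0.01 and that of the 8 genes to -0.51, and the share of higher among called genes went from 39.7 to 53.4%. In EAAE, none of the 8 was called by limma after E2, 4 had an unadjusted p under 0.05, and over all genes 0.69% were called higher and 0.763% lower. Leaving out EAAE saline mouse 3 gave 1 call, that of Rfx2.

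The difference between responses was called for 2 of the 8 genes, Rfx3 and Tekt1, both higher in EAAE, against 22.2% of all genes called higher and 15.1% lower. Between genotypes in saline, Foxj1 was the single gene of the 8 called, against 15% of all genes called lower and 14.5% higher. The count rose to 3 without EAAE saline mouse 1 (Tekt1 and the dim Dnali1 added) and to 2 without WT saline mouse 2 (Rfx3 added). After E2, 3 of the 8 were called higher in EAAE (Rfx3, Tekt1, Spag6) and 2 lower (Foxj1, Dnali1), against 33.5 and 24.5% of all genes. Both counts are near what the background shares would give for 8 genes. The 2 genotype comparisons rest on different mice, whereas each shares its arrays with the responses to E2.

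Other motile cilia genes were counted in 4 lists of axonemal parts, assembly factors and further genes of motile cilia. These held 113 genes of which 68 were tested, none of them among the 8. In saline, 17 of the 68 (25%) were lower in EAAE than in WT and 7 (10.3%) higher, beside 15 and 14.5% of all genes, with a median of -0.16 beside 0.00 for all genes. Of these, dynein arms and their assembly factors gave 3 lower and 2 higher of 21, and radial spokes, central pair and nexin links 4 lower and 2 higher of 13. Tektins and doublet inner proteins gave 4 lower and 1 higher of 14, and the remaining motile cilia genes 6 lower and 2 higher of 20. The lists shared with primary cilia, intraflagellar transport and the BBSome with the transition zone, gave 4 lower and 3 higher of 50. These counts carry no term for position on the slide, which was uneven between the saline groups. Over all genes such a term took the saline genotype calls from 5698 to 2963.

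Several of the lower genes are close to the background of the array. Fam183b, Dnah11 and Ttc25 were tested only because WT saline, the brighter group here, cleared the background on all 3 arrays. Genes that enter in this way tend to read lower in the other groups, and these are part of the count of lower genes above. Fam183b, a gene of ciliated cells, read -4.55, -3.80 and -3.74 in WT saline mice and -5.97, -6.35 and -6.67 in EAAE saline mice. It was at least 3.4-fold lower in EAAE (measured means -4.03 and -6.33, adjusted p = 0.000746 by limma). Dnah11, an outer arm dynein heavy chain, was at least 1.61-fold lower (measured means -5.11 and -6.89, adjusted p = 0.00433), with all EAAE saline arrays not well above background. The 3 EAAE saline mice lay below the 3 WT saline mice for both genes. Cfap161, a protein inside the doublets, was measured on all 6 arrays and fell from -3.10 ± 0.28 in WT to -4.69 ± 0.22 in EAAE (SD, n = 3 each), a log2 difference of -1.58 (SE 0.18, adjusted p = 0.000163). Cfap43, another axonemal protein, was lower by 1.61 (adjusted p = 0.000405), and Ttc25, which docks outer dynein arms, by 1.38 (adjusted p = 0.000383), though 1 of 3 EAAE arrays was above background for Ttc25. Iqcg of the nexin links and Nme5 of the radial spokes were each lower by 0.96 (adjusted p = 9.75e-05 and 0.00493).

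Not all motile cilia genes moved this way. Dnah2, an inner arm dynein heavy chain, was higher in EAAE saline than in WT saline mice by 0.99 (adjusted p = 0.00345), as were Ccdc40, which sets the spacing of the nexin links and inner arms, by 1.19 (adjusted p = 0.00563) and the kinase gene Stk33 by 1.06 (adjusted p = 0.000376). Among the regulators of ciliated cells other than the 8, Rfx7 was higher by 0.42 (adjusted p = 0.00444), the only call among the 11 tested.

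**Figure D3:**
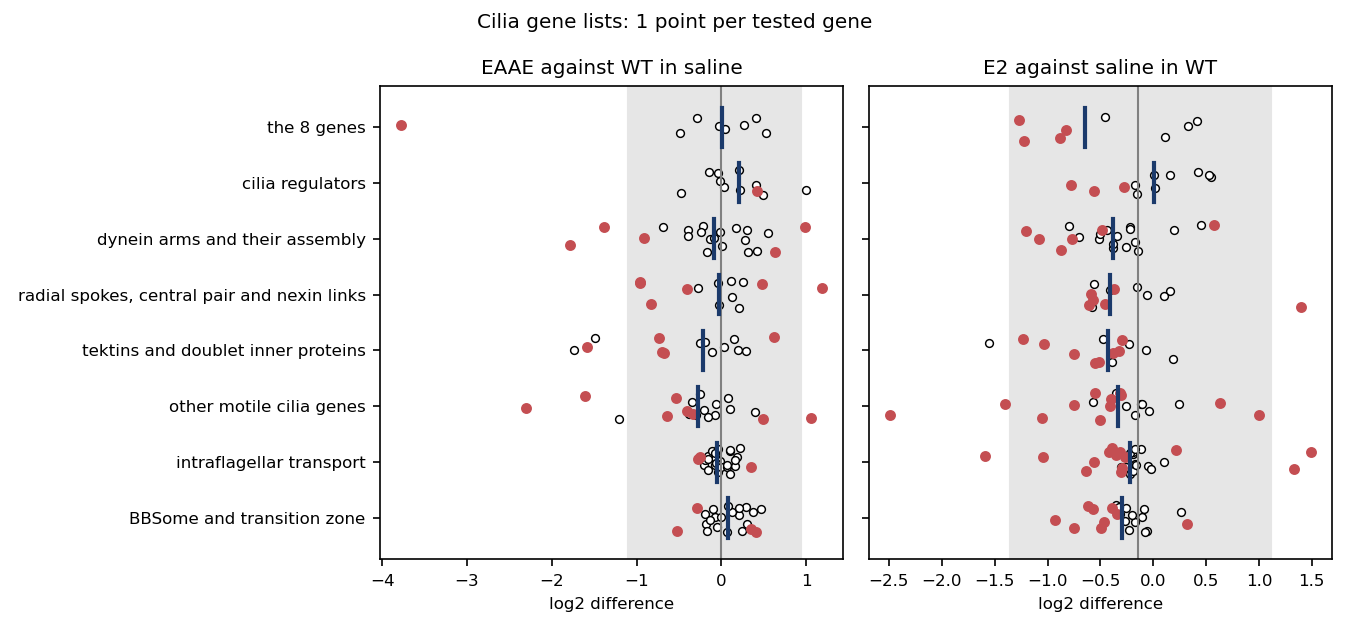
Log2 difference of each tested gene of the cilia lists, EAAE minus WT in saline (left) and E2 minus saline in WT (right), with red points called at an adjusted p under 0.05, blue bars at the list medians, the grey line at the median of all genes and the grey band from their 5th to 95th percentile; the panels have different x scales. Foxj1 lies at -3.77 on the left, and on the right 28 of the 68 genes of the 4 motile cilia lists were called lower.

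After E2 in WT, 28 of those 68 genes (41.2%) were lower and 4 (5.88%) higher, with a median of -0.39, beside 29.7 and 19.6% of all genes. Those lower include Fam183b, Ttc25 and Cfap44, which were tested only through the WT saline arrays. For Cfap44, named here for that reason, no WT E2 array was well above background. It was at least 1.36-fold lower after E2 (measured means -7.67 and -5.18, adjusted p = 0.00326 by limma). Saxo2, listed with the doublet inner proteins, was lower by 1.23 (adjusted p = 9.48e-05), Dnaaf4, a dynein assembly factor, by 1.08 (adjusted p = 2.07e-06), and Ccdc65 of the nexin links was higher by 1.40 (adjusted p = 6.80e-06). Of the 50 tested genes of the primary cilia lists, 19 (38%) were lower and 4 (8%) higher, against the same background. Their strongest changes by p were Ttc30b, lower by 1.59 (adjusted p = 2.64e-06), and Traf3ip1, higher by 1.49 (adjusted p = 1.24e-05), both of intraflagellar transport. In EAAE, limma called none of the 68 after E2 (5 had an unadjusted p under 0.05), and of the 50 it called Ttc21b, named after its value was seen, lower (adjusted p = 0.0187), by at least 1.08-fold since no EAAE E2 array was well above background (measured means -5.40 and -6.68). Of all genes, 0.69% were called higher and 0.763% lower there. Scaled by the array median, where 4499 of all genes were called higher and 3923 lower after E2 in WT, 21 of the 68 were lower and 6 higher, and 10 of the 50 lower and 4 higher. The medians of the 4 motile cilia lists in WT then ran from -0.30 to -0.20, still negative. That of the other regulators was 0.01 with the main scaling and 0.14 with the array median.

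Across the 12 arrays, the genes most like Foxj1 by Pearson correlation were Egfl6 (0.976), Spink12 (0.976), Tinag (0.975), Ano2 (0.975) and Plat (0.975), none of them in the cilia lists. Foxj1 in EAAE E2, Spink12 and Tinag in both EAAE groups and Fam135b, given next, in both WT groups were not well above background on any array, and Egfl6 was on 1 of 3 EAAE E2 arrays, so these ranks rest in part on readings near background. Plat, tissue plasminogen activator, went from a mean level of 4.24 in WT saline and 3.85 in WT E2 to 2.31 and 2.16 in the EAAE groups. The most opposite were Plcl1 (-0.978), Moxd1 (-0.977), Igf2bp2 (-0.976), Fam135b (-0.974) and Prkaa1 (-0.971). These correlations reflect the gap between genotypes, since the 12 points fall into a WT and an EAAE cluster, and are given without a test. Among the other 7 genes of the set, Dnali1 was closest to Foxj1 (0.759), followed by Tekt4 (0.196), Tekt2 (0.094), Rfx2 (0.068), Spag6 (-0.374), Rfx3 (-0.516) and Tekt1 (-0.804).

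**Figure D4:**
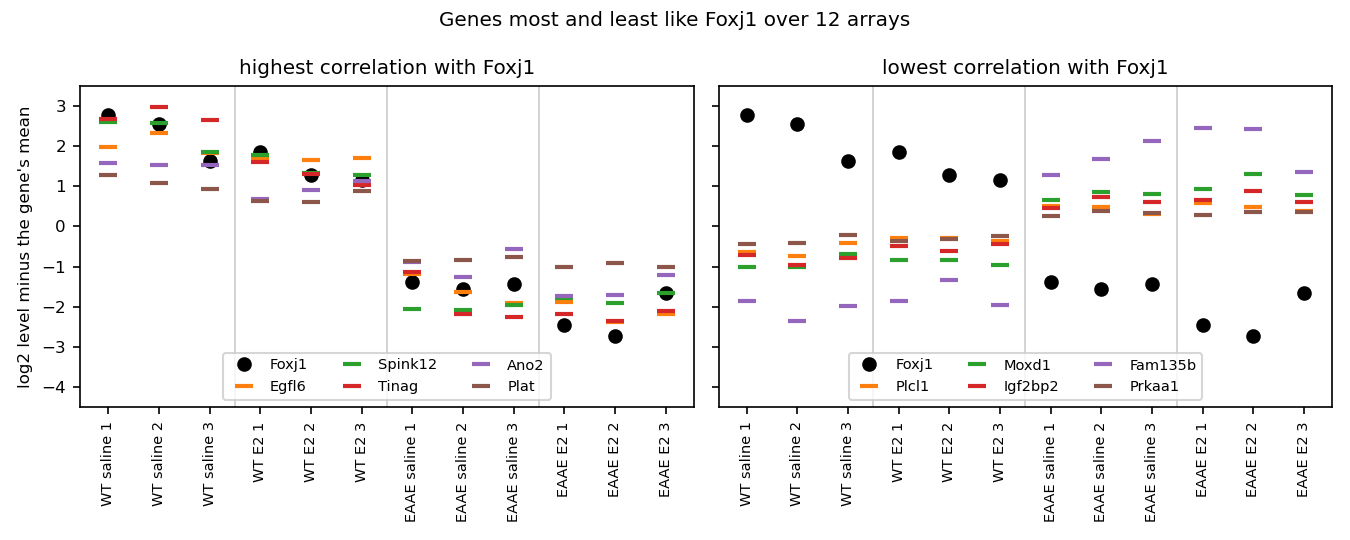
Log2 level minus the mean of the gene on each of 12 arrays, for Foxj1 (black points) with the 5 genes of highest correlation (left, 0.975 to 0.976) and the 5 of lowest (right, -0.978 to -0.971). The points separate into 6 WT and 6 EAAE arrays, which sets these correlations.

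Markers of the cells in the samples moved with genotype too. Of 17 uterine epithelial markers, 15 were higher in EAAE than in WT in saline and 1 was lower, beside 14.5 and 15% of all genes. The summed linear level of these markers, in units of the array's 75th percentile, ran from 231 to 271 in WT saline and from 497 to 589 in EAAE saline mice. Much of that sum was Wfdc2, and without it the ranges were 140 to 161 and 224 to 281. The part of epithelial content in the Foxj1 result was not tested. The exception was Foxa2, a transcription factor of uterine glands, singled out here after its values were seen. It read 2.17, 2.10 and 2.33 in WT saline, 1.15, 1.21 and 0.72 in WT E2, -0.03, 0.10 and -0.58 in EAAE saline, and -0.91, 0.36 and -0.28 in EAAE E2. Foxa2 was lower in EAAE saline than in WT saline by 2.37 (SE 0.29, adjusted p = 0.000235) and fell by 1.17 after E2 in WT (adjusted p = 0.00696). Its correlation with Foxj1 was 0.889, rank 407 among the genes, and its part in the Foxj1 result was not tested.

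Oviduct, which is rich in ciliated cells, can remain on a dissected uterus. The 3 genes listed as its markers (Ovgp1, Pax8, Pax2) were all detected in WT saline, but whether their RNA came from oviduct was not tested. Their summed level was 0.79 to 0.965 in WT saline, 0.545 to 0.59 in WT E2, 1.13 to 1.33 in EAAE saline and 1.14 to 1.44 in EAAE E2. Ovgp1 fell by 1.06 after E2 in WT (adjusted p = 0.000186 by limma), beside the lower Foxj1, Rfx3 and Spag6 there. Pax8 (0.18, adjusted p = 0.266) and Pax2 (-0.11, adjusted p = 0.634) were not called in that comparison. The part of oviduct RNA in the falls of the cilia genes, or in the genotype differences, was not tested. Of 12 ovary markers, 5 to 8 were above background per array in these ovariectomized mice, with summed levels of 1.09 to 2.05 in all groups. Smooth muscle (8 of 8) and stromal (10 of 10) markers were above background on every array. After E2 in WT, beside the falls of cilia genes, 8 of 10 stromal markers were lower and 1 higher (median -0.93), with a summed level of 444 to 471 in WT saline and 300 to 343 in WT E2. Of all genes, 29.7% were lower and 19.6% higher there. After E2, 6 of 8 smooth muscle markers were lower in EAAE than in WT (median -0.67), with a summed level of 431 to 522 in WT E2 and 263 to 434 in EAAE E2. In that comparison 24.5% of all genes were lower and 33.5% higher. The part of stroma and smooth muscle in the results on cilia genes was not tested.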

How the data were processed

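Per the file headers, the authors scanned 1-colour arrays and extracted spots with version 9.5.3.1 of Agilent's Feature Extraction (the submitters' processing notes give 9.5). Deposited values are intensity, corrected for background within each array and not scaled between arrays, and the deposited series table held the same intensity on all 45018 spots. Of these, 1639 were control spots and were left out, as were 56 to 117 spots per array marked as outliers, while 3 to 5 saturated spots were kept. Log2 intensity minus the array's 75th percentile (1401 to 1944) was averaged per probe.

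Probes had to clear the background on every array of 1 or more groups to be tested. The probe of highest mean stood for a gene. RefSeq (GRCm38.p6) named 22951 probes by their systematic accession, and 8371 kept the file's name. Probe coordinates are those of the array design (build mm7). No genome of that build was used here, so exons and UTRs were not assigned. Arrays lay on 3 slides, each with several groups. Position 4 held every EAAE E2 array and no other. In every comparison that uses that group, the group and position 4 cannot be told apart. WT saline arrays lay at positions 1, 1 and 2 and EAAE saline arrays at 2, 3 and 3, so genotype in saline is partly tied to position.

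Groups were compared with limma 3.58.1 (lmFit, eBayes, R 4.3.3) over 12 arrays, 2-sided, after a check on simulated data. Python 3.11.15, numpy 2.4.6, pandas 2.3.3 and matplotlib 3.10.9 were used elsewhere. The number of mice limits precision, and arrays give no counts. The 8 genes and all gene lists were chosen with earlier results of these data known. Named by rule were the 8 genes, the cilia genes of smallest p per list in 2 comparisons (examples are given), and the genes most and least like Foxj1. Marker lists covered uterine epithelium, oviduct, ovary, stroma and smooth muscle. Alternatives changed scaling, background correction, filter, blocks, the arrays fitted, the estimate of spread and the probe rule, and left out each array.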

Additional observations from a re-analysis of the deposited data

Results flagged for a closer look

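The response to E2 of Rfx3 differed between genotypes by 0.91 on the log2 scale (EAAE minus WT, adjusted p = 0.00918 by limma's interaction term), with a fall of 1.22 in WT and a difference of -0.30 in EAAE. With the mean of both tested Rfx3 probes, the other of them dim after E2, it was 0.40 and not called (adjusted p = 0.168 by limma). The response of Tekt1 differed by 1.15 (adjusted p = 0.015 by the same test), from -0.46 in WT to 0.69 in EAAE. With slide as a block the Tekt1 difference was 1.08 and missed the threshold (adjusted p = 0.0576).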

How the results depend on the processing

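Counts of the 8 genes called moved as follows. With only probes above background on all 12 arrays, which removes Foxj1, Dnali1 and Spag6, there were 2 calls for E2 in WT, 0 for genotype in saline and 2 for genotype after E2. The difference between responses gave 1 call with slide as a block and 1 with the mean of probes, and genotype in saline gave 2 with quantile normalization and 2 with the mean of probes. Leaving out 1 array gave 3 to 4 calls for E2 in WT, 0 to 1 for E2 in EAAE, 2 to 3 for the difference between responses, 1 to 3 for genotype in saline and 5 for genotype after E2.

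No difference that turned sign was called in either direction. With the array median these were Tekt2 after E2 in EAAE (0.031) and the response differences of Foxj1 (-0.024) and Tekt4 (-0.030). With slide as a block they were the Tekt4 response difference (-0.28) and the saline genotype differences of Tekt4 (0.053) and Spag6 (-0.072). With position as a term they were the Tekt4 response difference (-0.093) and the saline differences of Rfx2 (0.036) and Tekt2 (-0.046). Leaving out 1 array gave -0.15 to 0.10 for Tekt2 after E2 in EAAE, -0.25 to 0.41 and -0.10 to 0.31 for the response differences of Foxj1 and Tekt4, -0.22 to 0.16 and -0.075 to 0.14 for the saline differences of Rfx2 and Tekt2, and -0.22 to 0.028 for Tekt2 after E2 between genotypes. Foxj1 response differences rest on dim EAAE E2 readings. The cause was not tested.

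Replicate numbers did not pair the mice, as deviations of same-numbered mice correlated at -0.282 to 0.275. With the replicate block, 3 of the 8 genes were called for E2 in WT (Foxj1 lost, adjusted p = 0.0642) and 3 for the difference between responses (Dnali1 added, adjusted p = 0.0387), and no other call of the 8 changed.

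Over all genes, E2 in EAAE gave 280 calls, 120 without the filter, 140 with slide as a block, 24 with position, 141 with the replicate block, 8 from the 6 EAAE arrays alone and 63 to 367 with 1 array left out. Genotype in saline gave 5698 calls, 3623 with slide as a block and 2963 with position, and genotype after E2 11165 and 7306 with position. With the array median, the share higher among called genes for E2 in EAAE went from 47.5 to 62.7%. Signals near background limit Foxj1 and Dnali1 in EAAE.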
